A study of Mus musculus with 2 samples.

Results

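Hemidesmosomes are the junctions by which basal epithelial cells hold on to the basement membrane. In these cells 8 genes of the junction and of its laminin ligand were followed, out of 28000 features of each library: the integrin subunits Itga6, Itgb4 and Itga3, the laminin chains Lama3 and Lamb3, the plakins Dst and Plec, and the tetraspanin Cd151. They were taken by name, and all 8 have a feature in both libraries. Single-cell RNA-seq (10x Genomics, 3′ chemistry) had been run on prostate tumour tissue dissociated with collagenase and TrypLE, with 1 library per genotype. DoubleTg mice (hHGFtg with hMETtg and PB-Cre4) carried human HGF as a transgene active throughout the animal, together with human MET placed at the H11 locus behind a CAG promoter and a loxP-flanked stop, and their tissue was labelled prostatic adenocarcinoma. TripleTg mice carried the same alleles and, in addition, a Ctnnb1 allele whose exon 3 is flanked by loxP sites, and their tissue was labelled prostatic carcinoma. In both genotypes the Cre recombinase was driven by a probasin promoter, which is active in prostate epithelium, so that MET (and, in TripleTg, a stabilised β-catenin) was switched on there, while HGF was not limited to any cell type. The mice were of a mixed C57BL/6 and C3H SCID background. Age at collection and the number of animals per library are not given in the sources used here.

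In a hemidesmosome the integrin α6β4 (Itga6 with Itgb4) spans the plasma membrane and binds laminin-332 outside the cell, a trimer whose α3 and β3 chains are encoded by Lama3 and Lamb3. On the inner side, plectin (Plec) and the epithelial form of dystonin (Dst, also known as BP230) link the integrin and the collagen XVII (Col17a1) to keratin filaments. The integrin α3β1 (Itga3 with Itgb1) is a second receptor for the same laminin at focal contacts, and Cd151 associates with laminin-binding integrins in the membrane. In normal prostate, basal cells rest on the basement membrane, and the loss of basal cells is a feature of prostate cancer.

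By gene span on GRCm38 (GENCODE mouse release M21), Itga6 lies on chromosome 2 from 71745616 to 71858416, Itgb4 and Itga3 both lie on chromosome 11, from 115974709 to 116008412 and from 95044474 to 95076801, and Lama3 lies on chromosome 18 from 12333819 to 12583013. Lamb3 and Dst both lie on chromosome 1, from 193207699 to 193343878 and from 33908225 to 34308661. Plec lies on chromosome 15 from 76170974 to 76232574 and Cd151 on chromosome 7 from 141467392 to 141471473. All 8 are protein-coding. On the same strand, the span of Plec overlaps that of Parp10, and the span of Lamb3 overlaps 4930570N18Rik, so their counts are uncertain where exons are shared.

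Promoter sequences were taken from RefSeq windows on GRCm38.p6, and those of 4 of the 8 genes (Itga3, Lamb3, Dst and Cd151) were used, with 8 windows in all. The remaining genes were not covered by the search, which does not show that they lack a window or the letters. Of each window, the 250 bases before the annotated start were searched on both strands for AP-1 (TGANTCA), for TCF/LEF (CTTTGAT or CTTTGTT), through which β-catenin acts, and for the E-box CACCTG, none of which overlap each other in these windows. Shown are the windows of 3 genes that the results turn on. Dst and Itga3 were lower in TripleTg than in DoubleTg in both basal-like and luminal-like cells, and Lamb3 was the gene with the highest ratio of basal-like over luminal-like cells in TripleTg. Capitals mark the matched letters.

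Dst promoter, plus strand, chr1:34011345-34011594: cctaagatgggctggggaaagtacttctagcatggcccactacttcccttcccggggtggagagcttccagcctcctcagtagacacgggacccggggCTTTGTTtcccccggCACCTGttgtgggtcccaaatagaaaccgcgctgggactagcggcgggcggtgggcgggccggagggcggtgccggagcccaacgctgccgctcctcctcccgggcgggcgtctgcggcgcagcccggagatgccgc
Itga3 promoter, minus strand, chr11:95076715-95076964: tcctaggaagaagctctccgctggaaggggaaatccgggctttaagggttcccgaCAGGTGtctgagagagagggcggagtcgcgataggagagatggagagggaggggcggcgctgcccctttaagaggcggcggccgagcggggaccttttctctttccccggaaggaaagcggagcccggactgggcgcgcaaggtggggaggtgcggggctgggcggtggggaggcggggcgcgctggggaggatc
Lamb3 promoter, plus strand, chr1:193301744-193301993: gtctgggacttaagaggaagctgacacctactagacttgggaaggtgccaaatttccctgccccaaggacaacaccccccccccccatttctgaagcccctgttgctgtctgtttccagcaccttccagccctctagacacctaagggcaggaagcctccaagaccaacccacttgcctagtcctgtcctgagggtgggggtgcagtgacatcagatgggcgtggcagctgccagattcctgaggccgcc

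In the Dst window the TCF/LEF letters CTTTGTT begin 152 bases before the start and the E-box letters begin 137 bases before it. In the Itga3 window the E-box is on the opposite strand, and the Lamb3 window shown holds none of the searched letters. Each of these genes has a second window, not shown: that of Lamb3 holds the E-box letters, which begin 6 bases before its start, and those of Dst and Itga3 hold none. Over the 8 windows, TCF/LEF letters were in 1, E-box letters in 4 and AP-1 letters in 0. Among 32851 windows of the same length over all genes, 8.06% held TCF/LEF letters, 17.2% the E-box and 6.75% AP-1. These matches describe letters and not binding.

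After the limits on genes and mitochondrial UMIs (a UMI, unique molecular identifier, marks 1 captured RNA molecule), 10598 of 12072 DoubleTg cells and all 9492 TripleTg cells remained, with medians of 16761 and 20097 UMIs. Each library was clustered without the 8 genes and their partner genes, and clusters were named from marker genes, so these names need not match the study's own. Levels are CPM, the UMIs of a gene per 1000000 UMIs summed over a class. With no replicates there is no test of any difference, and the 95% intervals given cover counting error only. Basal-like cells numbered 1868 in DoubleTg and 807 in TripleTg, luminal-like cells 4957 and 4417, endothelial-like cells 276 and 242, fibroblast-like cells 952 and 636, smooth muscle-like cells 66 and 103, and immune-like cells 1030 and 627. The order of levels is given among these 6 classes, and the few glial-like cells (39 and 25) are described apart at the end. Outside that order also stand seminal vesicle-like cells, 126 in DoubleTg and 672 in TripleTg, and 1284 and 1963 cells in clusters that took no name. Krt5 was in 94.7% and 93.1% of basal-like cells and Krt14 in 94.9% and 94.2%, while Trp63 was in 14.3% and 50.3% and Krt15 in 98.4% and 58.0%, so the basal-like classes of the libraries were not alike. Pecam1 was in 88.0% and 86.4% of endothelial-like cells. Epithelial transcripts were found in every class: Krt8 and Epcam stood in non-epithelial classes at 13.6% to 36.5% of their epithelial level, and Krt5 and Krt14 at 1.80% to 11.4% of theirs. The libraries shared 29 cell barcodes.

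The integrin β4 subunit, which occurs in α6β4 alone, marked basal-like cells. Itgb4 stood at 237 CPM (231 to 243) in DoubleTg and 147 CPM (141 to 152) in TripleTg basal-like cells. In luminal-like cells it stood at 44.2 CPM in DoubleTg and 20.8 CPM in TripleTg. Among the 6 classes basal-like cells were thus the highest for Itgb4 in both libraries, and endothelial-like cells came next, at 57.6 CPM (48.0 to 68.5) and 42.7 CPM (35.0 to 51.5). In DoubleTg that second place depended on doublets: without the cells that Scrublet called, endothelial-like cells had 42.5 CPM and luminal-like cells 43.6 CPM. Fibroblast-like, smooth muscle-like and immune-like cells stood between 8.88 and 22.8 CPM, and the intervals of neighbours among these classes overlapped. When each cell was thinned to 5000 UMIs, Itgb4 was detected in 62.9% of DoubleTg and 48.0% of TripleTg basal-like cells, in 18.7% and 9.12% of luminal-like cells and in 20% of endothelial-like cells of either library, against 4.17% and 3.73% of immune-like cells, which should lack it.

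Itga6, whose α6 subunit also pairs with β1, was spread more widely. In DoubleTg it was highest in endothelial-like cells at 436 CPM (409 to 465), above basal-like cells at 313 CPM (306 to 320) and luminal-like cells at 147 CPM (145 to 149). In TripleTg the order was basal-like cells at 283 CPM (275 to 290), luminal-like cells at 276 CPM (273 to 278) and endothelial-like cells at 261 CPM (241 to 281), and the intervals of neighbours in that order overlapped. Fibroblast-like cells had 39.7 and 67.0 CPM, which went to 16.2 and 43.4 CPM without the 8% of cells with the highest doublet scores, and immune-like cells 50.3 and 93.4 CPM.

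Itga3, the partner of Itgb1 in the other laminin receptor, was highest in basal-like cells, at 408 CPM (400 to 416) in DoubleTg and 113 CPM (108 to 118) in TripleTg. Luminal-like cells had 78.2 and 32.7 CPM, and endothelial-like cells 78.7 (67.5 to 91.3) and 54.9 CPM (46.2 to 64.8). The DoubleTg luminal-like and endothelial-like values were not distinguishable, whereas in TripleTg the endothelial-like value was the higher. Without called doublets the DoubleTg values parted, with luminal-like cells at 77.0 CPM and endothelial-like cells at 50.7 CPM. Thinned shares of cells with Itga3 were 78.1% and 40.2% in basal-like cells, against 7.81% and 3.73% in immune-like cells.

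The laminin chains were highest in basal-like cells in both libraries. Lamb3, the β3 chain of laminin-332, stood at 188 CPM (183 to 194) in DoubleTg and 145 CPM (139.9 to 151) in TripleTg basal-like cells. In luminal-like cells it was 7.90 and 6.66 CPM, and in endothelial-like cells 9.0 (5.50 to 13.9) and 9.48 CPM (6.08 to 14.1). Fibroblast-like cells had 7.53 and 7.40 CPM, so the luminal-like values were not distinguishable from those of fibroblast-like cells, which should lack the gene. That reading depends on doublets: without the called ones, DoubleTg Lamb3 stood at 7.25 CPM in luminal-like, 4.86 CPM in fibroblast-like and 2.21 CPM in endothelial-like cells. In DoubleTg the next of the 6 classes after basal-like cells was immune-like, at 22.9 CPM (20.1 to 26.0). After thinning, Lamb3 was in 52.9% and 50.1% of basal-like cells and in 3.96% and 2.82% of luminal-like cells, with fibroblast-like shares of 2.90% (1.73 to 4.55) and 1.11% (0.30 to 2.83).

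Lama3, the α3 chain, stood at 158 CPM (153 to 163) in DoubleTg and 106 CPM (102 to 111) in TripleTg basal-like cells. Endothelial-like cells came next at 31.5 CPM (24.5 to 39.8) and 29.6 CPM (23.3 to 37.1). In luminal-like cells it was 4.28 CPM in DoubleTg, below the 7.57 CPM of immune-like cells, and 15.7 CPM (15.1 to 16.4) in TripleTg, above the 6.63 CPM (4.92 to 8.74) of immune-like cells there. The TripleTg immune-like clusters had 2.48 CPM (led by C1qa), 14.9 CPM (9.74 to 21.8, led by S100a8) and 20.1 CPM (10.0 to 35.9, led by Ccr7). TripleTg smooth muscle-like cells had 22.5 CPM (14.9 to 32.5). The thinned shares were 1.75% and 6.40% of luminal-like cells against 1.62% and 1.37% of immune-like cells. Without the 8% of cells with the highest doublet scores, DoubleTg luminal-like cells had 3.05 CPM and the DoubleTg immune-like clusters from 0.96 CPM (led by Ccl4) to 7.16 CPM (led by Jchain), so these data do not settle whether the DoubleTg luminal-like level lies above background.

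Dst, a large gene whose other forms serve nerve and muscle, stood at 500.8 CPM (492 to 509) in DoubleTg and 359 CPM (351 to 368) in TripleTg basal-like cells. In DoubleTg luminal-like cells it stood at 100.02 CPM and in TripleTg luminal-like cells at 27.0 CPM, below the 87.2 CPM of TripleTg immune-like cells. Endothelial-like cells had 240 and 218 CPM and smooth muscle-like cells 246 (212 to 283) and 152 CPM (132 to 176). Counts per gene, as deposited, do not tell the forms of Dst apart, so levels outside the epithelium cannot be read as BP230.

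Plec, found in most cell types, was highest in basal-like cells too, at 507 CPM (498 to 515) in DoubleTg and 299.8 CPM (292 to 308) in TripleTg. Luminal-like cells had 143 and 243 CPM, and endothelial-like cells 246 (226 to 267) and 286 CPM (266 to 308). In TripleTg the basal-like and endothelial-like intervals overlapped, and in DoubleTg they did not. Cd151 was highest in endothelial-like cells in both libraries, among the 6 classes, at 135 CPM (121 to 152) in DoubleTg and 225 CPM (207 to 244) in TripleTg. Basal-like cells had 111 and 64.3 CPM, luminal-like cells 62.4 and 71.7 CPM, and immune-like cells the lowest levels of the 6 classes, 22.8 and 29.8 CPM. Smooth muscle-like cells had Cd151 at 104 (82.6 to 129) and 103 CPM (85.7 to 122), and fibroblast-like cells at 50.5 and 68.1 CPM. In DoubleTg the smooth muscle-like and endothelial-like intervals overlapped.

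**Figure D1:**
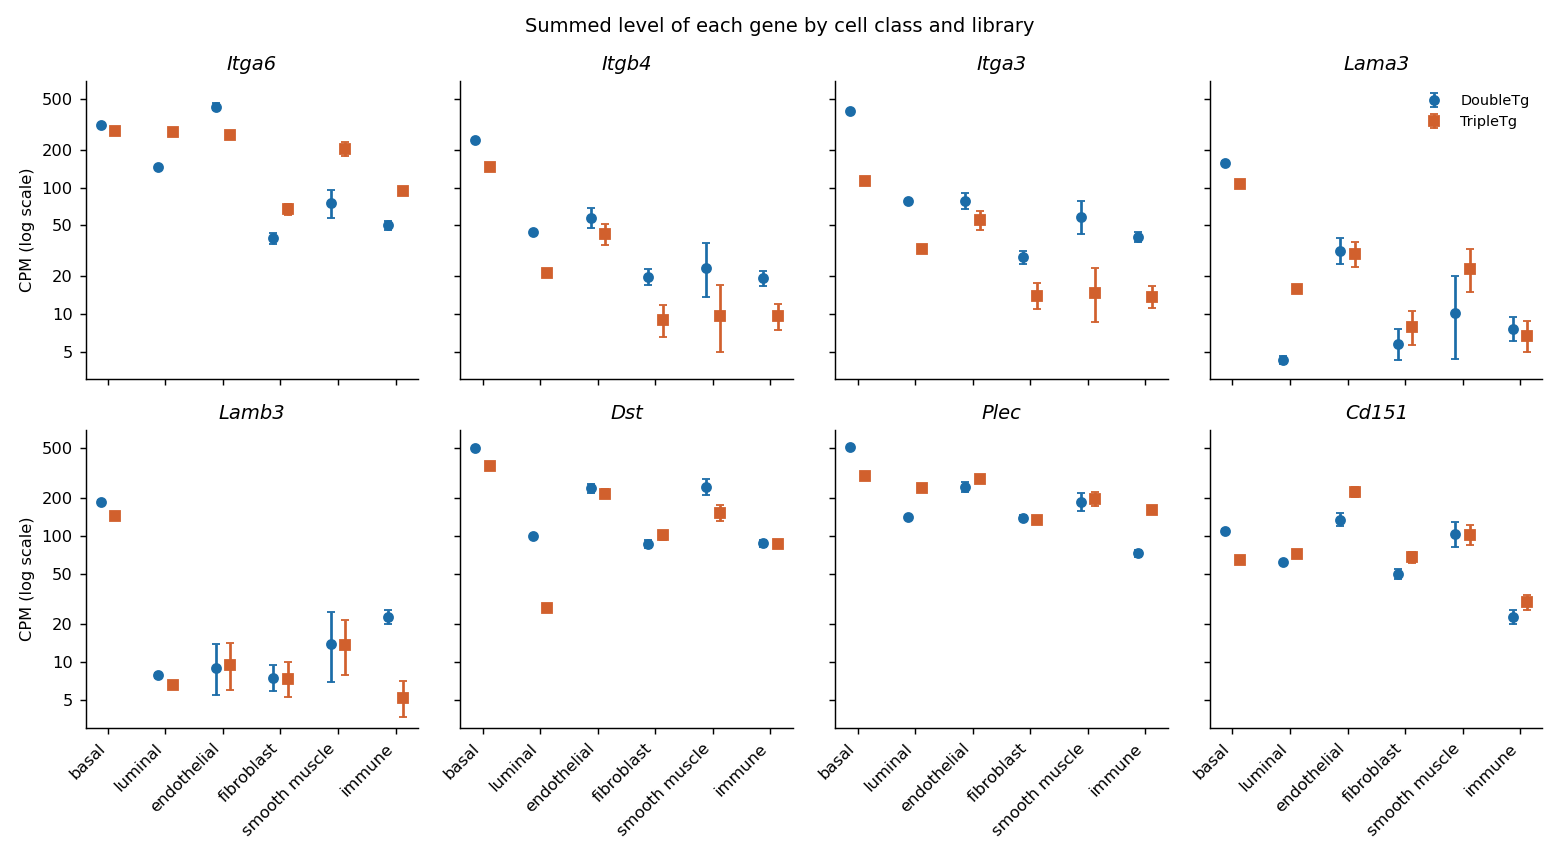
Level of each of the 8 genes (CPM, log scale) in 6 cell classes of the DoubleTg library (blue circles) and the TripleTg library (orange squares), each point the sum over the cells of 1 class in 1 library. Bars are exact Poisson 95% intervals that cover counting error only. Lamb3 drops from 188 and 145 CPM in basal-like cells to under 10 CPM in luminal-like cells, whereas Itga6 in TripleTg is nearly level over basal-like, luminal-like and endothelial-like cells.

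The comparison of basal-like with luminal-like cells asked how far the genes mark the basal layer in each tumour. In DoubleTg all 8 genes were higher in basal-like cells and 7 were at least 2-fold higher, against 18.9% of 7574 genes with at least 10 CPM in either class. Their median log2 ratio was 2.35, against 0.16 over all those genes. The highest log2 ratios were those of Lama3, 5.20 (5.10 to 5.31), and Lamb3, 4.58 (4.49 to 4.66), and since their luminal-like levels were near those of non-epithelial classes, the size of these ratios and their order rest on that background. Itgb4 had 2.42, Itga3 2.38, Dst 2.32, Plec 1.82, Itga6 1.09 and Cd151 0.83. All but Cd151 were thus past 2-fold. Itga6 stood at 0.90 with each cell thinned to 5000 UMIs and at 0.87 with TMM factors, and was then under 2-fold.

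In TripleTg 5 of the 8 genes were at least 2-fold higher in basal-like cells, against 9.32% of 7190 genes, with a median of 2.27 against −0.03. These were Lamb3 at 4.45 (4.34 to 4.56), Dst at 3.73 (3.67 to 3.79), Itgb4 at 2.82, Lama3 at 2.76 (2.67 to 2.84) and Itga3 at 1.79. Luminal-like Lamb3, at 6.66 CPM, was near the 7.40 CPM of fibroblast-like and the 5.17 CPM of immune-like cells. Luminal-like Dst, at 27.0 CPM, was below the 87.2 CPM of immune-like cells. The sizes of the Lamb3 and Dst ratios and their order thus rest on these low luminal-like levels. Plec stood at 0.30, Itga6 at 0.04 (−0.0038 to 0.08) and Cd151 at −0.16 (−0.24 to −0.07). In this library the level of the α6 subunit was close between the classes, with a ratio of 0.16 at Leiden resolution 2, 0.08 without the 8% of cells with the highest doublet scores and −0.07 with each cell thinned to 5000 UMIs, whereas that of its partner Itgb4 was 7.05-fold higher in basal-like cells. No gene of the 8 was 2-fold lower in basal-like cells in either library, against 19.4% of genes in DoubleTg and 8.22% in TripleTg.

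**Figure D2:**
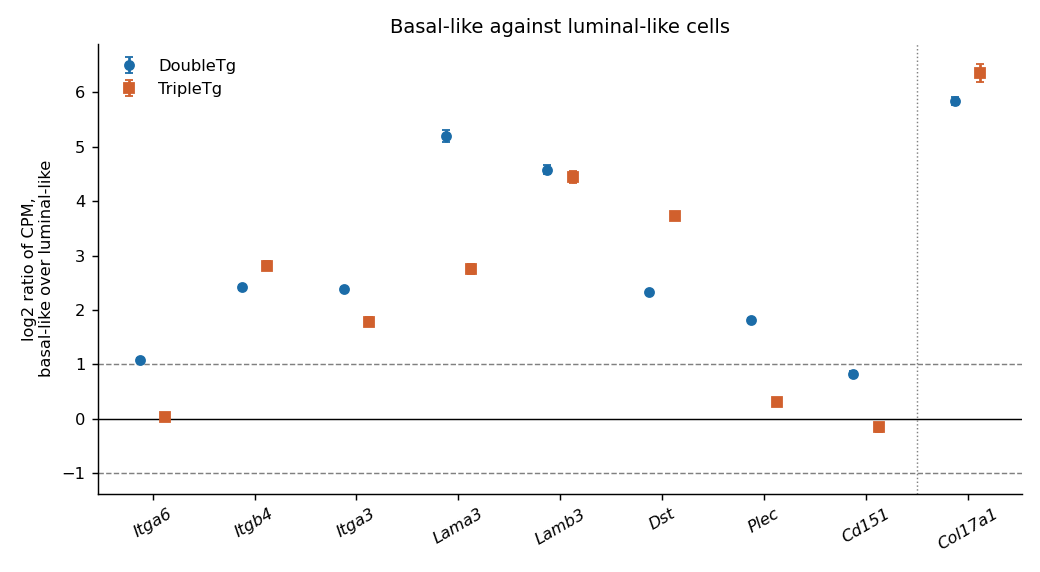
Log2 ratio of basal-like over luminal-like cells for each of the 8 genes and, right of the dotted line, their partner Col17a1, in DoubleTg (blue circles) and TripleTg (orange squares), with dashed lines at 2-fold and conditional binomial 95% intervals that cover counting error only. Lamb3 lies at 4.58 and 4.45, and Itga6 moves from 1.09 in DoubleTg to 0.04 in TripleTg.

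Cell by cell, the genes were detected together most often in basal-like cells, and next in endothelial-like cells. At 5000 UMIs per cell, the median number of the 8 genes detected was 5 in DoubleTg and 4 in TripleTg basal-like cells, 3 in endothelial-like cells and 2 in luminal-like cells of both libraries, and 1 in fibroblast-like and immune-like cells. At least 4 of the 8 were detected in 84.1% of DoubleTg and 61.4% of TripleTg basal-like cells, in 38.8% and 39.4% of endothelial-like cells, in 17.0% and 8.68% of luminal-like cells, and in 4.17% and 3.14% of immune-like cells. All 8 were detected in 67 DoubleTg and 6 TripleTg basal-like cells and in 0 luminal-like cells of either library. They were also all detected in 1 DoubleTg immune-like cell and in 2 TripleTg seminal vesicle-like cells. Detection of a gene depends on depth, and cells under 5000 UMIs were left out. These were 134 of 1868 DoubleTg and 46 of 807 TripleTg basal-like cells, but 116 of 276 and 82 of 242 endothelial-like cells and 277 of 636 TripleTg fibroblast-like cells, so the shares of the latter classes rest on their deeper cells.

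Both chains of α6β4 were found in 46.9% of DoubleTg and 32.7% of TripleTg basal-like cells, against 10.6% and 5.96% of luminal-like cells. Lama3 and Lamb3 were both found in 24.0% and 22.2% of basal-like cells, against 0.35% and 0.51% of luminal-like cells. Within DoubleTg basal-like cells, Lamb3 was found in 58.3% of cells with Lama3 and in 49.2% of cells without it, and in TripleTg in 65.0% and 42.3%. Cells of 1 library are not replicates, and these shares are descriptions.

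**Figure D3:**
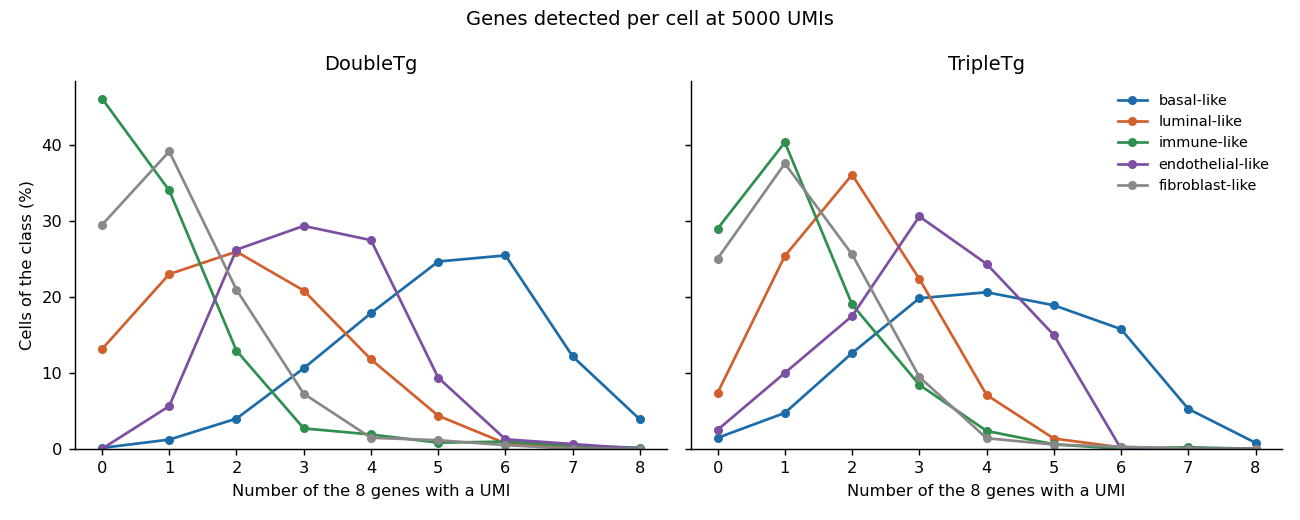
Number of the 8 genes detected per cell after thinning to 5000 UMIs, as percent of the cells of a class, for 5 classes of each library. The median basal-like cell has 5 genes in DoubleTg and 4 in TripleTg, and the median luminal-like cell has 2.

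Among basal-like cells the genes varied with the cluster. DoubleTg basal-like cells fell into a cluster of 969 cells led by Krt15 and one of 899 cells led by Lgals7, with medians of 9687 and 15923 UMIs. Lama3 stood at 94 CPM in the former and 199 CPM in the latter, Lamb3 at 131 and 225 CPM, Itgb4 at 183 and 272 CPM and Plec at 387 and 583 CPM. Itga6, at 306 and 317 CPM, and Dst, at 529 and 483 CPM, moved by 1.04-fold and 1.10-fold only. The laminin chains thus varied most within the class, with 2.11-fold for Lama3. TripleTg basal-like cells were nearly all in 1 cluster of 783 cells.

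Luminal-like clusters varied more in TripleTg than the class sums show. A cluster of 113 TripleTg cells led by Reg3b and one of 74 cells led by Rsad2 had the highest levels of the laminin chains, with Lama3 at 94.5 CPM (83.9 to 106) and 39.6 CPM and Lamb3 at 51.6 CPM (43.9 to 60.3) and 58.1 CPM (48.0 to 69.7). The median luminal-like cluster of TripleTg had 11.1 CPM of Lama3 and 6.45 CPM of Lamb3. Dst and Itgb4 were also highest there, with Dst at 123 and 72.7 CPM against a median of 21.4 CPM, and Itgb4 at 70.1 and 53.1 CPM against 19.7 CPM. Basal markers were also higher there: the mean share of cells with a basal marker, over the basal marker list, was 0.378 and 0.399 in these clusters and 0.177 to 0.295 in the other TripleTg luminal-like clusters, and its part was not tested. Itga6, in contrast, ranged over 1.94-fold among the 9 TripleTg clusters, from 182 to 352 CPM, and the Reg3b-led cluster, at 220 CPM, was below its median of 286 CPM. That range leaves out the Tchh-led TripleTg cluster, which was kept unnamed and had Itga6 at 85.9 CPM (81.4 to 90.6). In DoubleTg the 10 luminal-like clusters ranged from 1.47 to 21.2 CPM for Lama3 and from 1.76 to 23.6 CPM for Lamb3, and the highest was in both cases the Ube2c-led cluster. The lowest DoubleTg cluster for 6 of the 8 genes was led by Sbp, a secretory protein gene, with Itga6 at 31.8 CPM and Itga3 at 10.6 CPM.

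**Figure D4:**
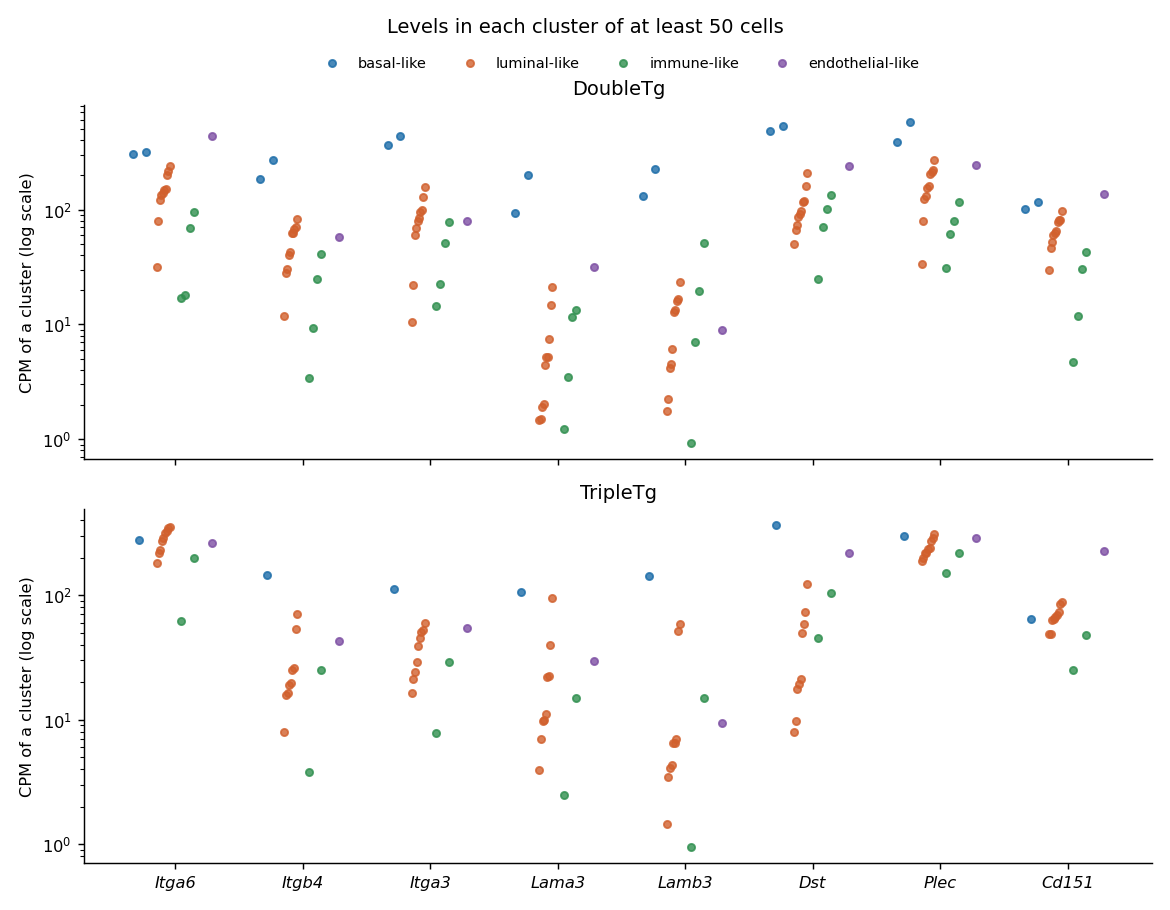
Level of each of the 8 genes (CPM, log scale) in every cluster of at least 50 cells named basal-like, luminal-like, immune-like or endothelial-like, with DoubleTg above and TripleTg below; each point is 1 cluster. Luminal-like clusters spread widely for Lama3, Lamb3 and Dst, where the Reg3b-led TripleTg cluster holds 94.5 CPM of Lama3, and narrowly for Itga6 in TripleTg, from 182 to 352 CPM. The unnamed Tchh-led TripleTg cluster, with Itga6 at 85.9 CPM, is not plotted.

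The comparison between genotypes asked how the added β-catenin allele goes with the junction genes in each class. It sets 1 library against another, so genotype and library cannot be told apart. In basal-like cells all 8 genes were lower in TripleTg, and 1, Itga3, was at least 2-fold lower, against 13% of 7311 genes lower and 13% higher. Their median log2 ratio was −0.63, against −0.09 over all genes. Itga3 stood at −1.85 (−1.92 to −1.79), a 3.61-fold difference, and the remaining ratios ran from −0.78 for Cd151, −0.76 for Plec and −0.69 for Itgb4 to −0.57 for Lama3, −0.48 for Dst, −0.37 for Lamb3 and −0.15 for Itga6. All 8 lay below 0 in each of the 7 other settings tried for this class, while the 7 genes other than Itga3 stayed under 2-fold, the nearest being Itgb4 at −0.98 with the junction genes among the variable genes. The 6 basal markers summed to 14789 CPM in DoubleTg and 5937 CPM in TripleTg, with none at 0, and did not differ alike: Krt15 stood at 7154 and 1078 CPM, Krt5 at 1190 and 1134 CPM, and Trp63 was higher in TripleTg, at 16.7 and 62.7 CPM, as was Aqp3, at 587 and 923 CPM. The 8 fibroblast markers summed to 1278 and 157 CPM, with none at 0. The 6 immune markers summed to 9.35 CPM in DoubleTg and 106 CPM in TripleTg, of which Cd52 was 4.67 and 89.2 CPM, and the endothelial markers to 4.4 and 26.1 CPM, with 1 and 0 at 0. Their part in the result was not tested.

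Luminal-like cells did not share that direction. For this comparison the DoubleTg cluster led by Sbp and the TripleTg cluster led by Tff3 were left out, since each has a marker of another class among its leading genes. Of the 7 genes with at least 10 CPM, 1 was at least 2-fold higher in TripleTg, against 9.44% of 7455 genes, and 3 were at least 2-fold lower, against 13%. The median ratio was −0.02, against −0.08 over all genes. Lama3 stood at 1.84 (1.72 to 1.96), from 4.71 to 16.9 CPM, while Dst stood at −1.92 (−1.97 to −1.86), Itga3 at −1.62 (−1.67 to −1.56) and Itgb4 at −1.34 (−1.41 to −1.27). Whether the DoubleTg level of Lama3 lies above background was not settled, so the size of its ratio rests on that background. Itga6 was higher at 0.67 (0.64 to 0.69), Plec at 0.47, and Cd151 stood at −0.02 (−0.06 to 0.02). The chains of α6β4 thus went in opposite directions, Itga6 from 168 to 267 CPM and Itgb4 from 50.2 to 19.8 CPM. Lamb3 was below 10 CPM in both libraries, at 8.94 and 6.57 CPM. Without the Reg3b-led and Rsad2-led clusters the ratios were 1.58 for Lama3, −2.11 for Dst, −1.68 for Itga3 and −1.51 for Itgb4, and the same 4 genes were past 2-fold. The 6 immune markers summed to 99.4 CPM in DoubleTg and 764 CPM in TripleTg luminal-like cells, of which Cd52 alone was 80.4 and 734 CPM, and the 6 basal markers to 314 and 256 CPM, with none at 0, and their part was not tested.

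In endothelial-like cells none of the 7 genes with at least 10 CPM was 2-fold higher or lower in TripleTg, against 10.6% and 7.4% of 8107 genes. Itga6 was lower at −0.74 (−0.89 to −0.60) and Cd151 higher at 0.73 (0.53 to 0.94), so the α6 subunit and its tetraspanin partner went opposite ways. Plec stood at 0.22 (0.06 to 0.38), Dst at −0.14 (−0.32 to 0.03) and Lama3 at −0.09 (−0.58 to 0.40), and the last pair was not distinguishable from 0 at this depth. Itgb4, at −0.43 (−0.82 to −0.05), and Itga3, at −0.52 (−0.85 to −0.19), depended on doublets: without the DoubleTg cells that Scrublet called, 8.33% of the class, they stood at 0.0072 and 0.11. The 6 basal markers summed to 1008 CPM in DoubleTg and 238 CPM in TripleTg endothelial-like cells, with none at 0. Itgb4 in DoubleTg endothelial-like cells was 24.3% of its basal-like level, while Krt5 was 4.05% and Krt14 5.59% of theirs, and the broader epithelial genes Epcam and Cdh1 were 22.3% and 25.7% of their epithelial levels. In TripleTg endothelial-like cells the share was 29.1% for Itgb4, 3.55% for Krt5, 2.22% for Krt14, 16.6% for Epcam and 18.3% for Cdh1. The 6 immune markers summed to 61.6 CPM in DoubleTg and 419.6 CPM in TripleTg, with none at 0, of which Cd52 was 23.4 and 269 CPM. The part of these markers was not tested.

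In fibroblast-like cells 2 of the 6 genes with at least 10 CPM were at least 2-fold lower in TripleTg, against 4.76% of 8061 genes, and 0 were higher, against 7.17%. These were Itgb4 at −1.14 (−1.63 to −0.68) and Itga3 at −1.01 (−1.40 to −0.64). Neither held without called doublets, which were 4.83% of the DoubleTg class: the DoubleTg level of Itgb4 went from 19.6 to 10.1 CPM and that of Itga3 from 28.0 to 16.0 CPM, and the ratios to −0.19 and −0.20. Itga6 stood at 0.76 (0.54 to 0.97) and at 1.45 under that setting. That setting changed the DoubleTg side alone, since Scrublet called no TripleTg cell. Cd151 was at 0.43 (0.23 to 0.63), Dst at 0.23 (0.07 to 0.38) and Plec at −0.04 (−0.17 to 0.09). The 6 immune markers summed to 53.6 CPM in DoubleTg and 341 CPM in TripleTg fibroblast-like cells, of which Cd52 was 29.7 and 259 CPM, and the 6 basal markers to 309 and 244 CPM, with none at 0, and their part was not tested.

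Smooth muscle-like cells were few, 66 and 103, and their values rest on small counts. Of the 8 genes 1, Itga6, was at least 2-fold higher in TripleTg, against 12.2% of 8425 genes. It stood at 1.44 (1.03 to 1.88), from 59 UMIs in DoubleTg and 253 in TripleTg. Lower by at least 2-fold were 2 genes, Itga3 at −2.01 (−2.89 to −1.20) and Itgb4 at −1.24 (−2.43 to −0.11), against 12%. Dst was at −0.69 (−0.99 to −0.39), and clustering at a higher resolution turned it to 0.17. At that resolution Itga6 stood at 2.57, Itga3 at −1.09 and Itgb4 at −0.60, and without the 8% of cells with the highest doublet scores these stood at 2.74, −3.72 and −0.91, so Itgb4 was then under 2-fold. The classes differed in other markers: endothelial markers summed to 76.0 CPM in DoubleTg, with 5 of 9 at 0, and 475 CPM in TripleTg, with 1 at 0, and the 8 fibroblast markers to 793 and 4759 CPM, with 1 and 0 at 0. The 6 basal markers summed to 1255 CPM in DoubleTg, with 1 at 0, and 358 CPM in TripleTg, with none at 0, and the 6 immune markers to 50.7 and 279 CPM, with none at 0. Their part in these ratios was not tested.

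**Figure D5:**
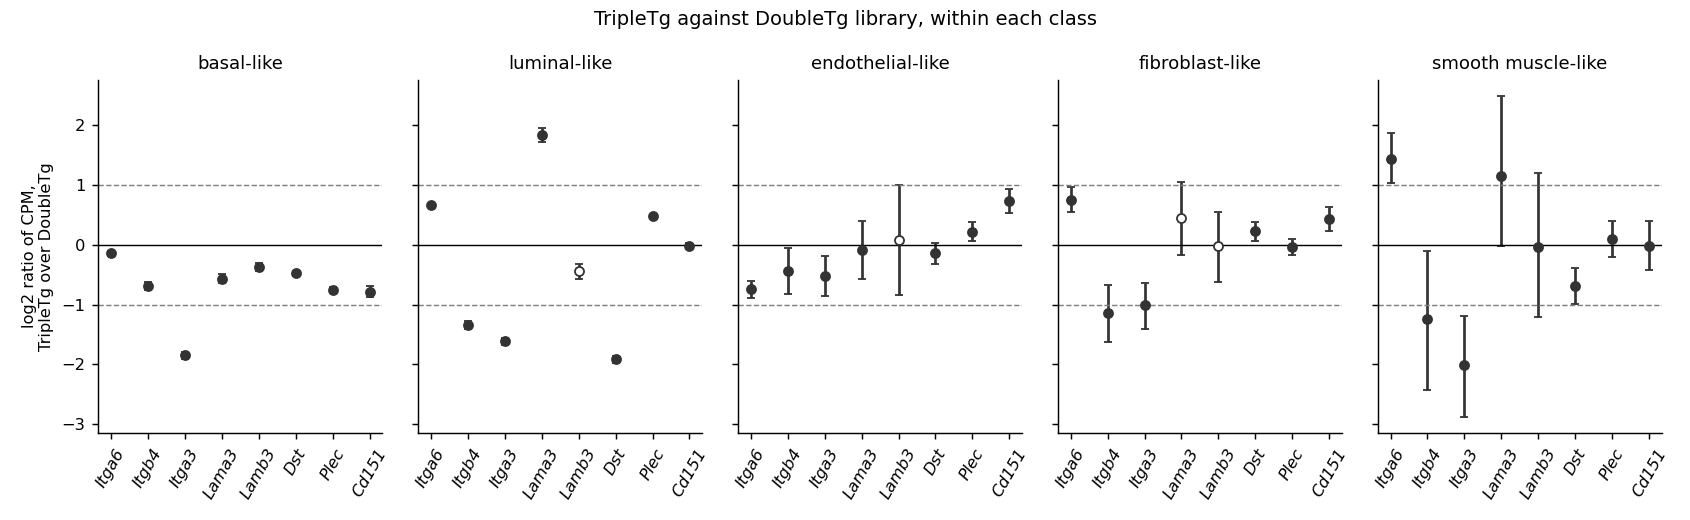
Log2 ratio of TripleTg over DoubleTg for each of the 8 genes in 5 cell classes, with conditional binomial 95% intervals that cover counting error only, dashed lines at 2-fold and open circles for genes under 10 CPM in both libraries. In basal-like cells every gene lies below 0, with Itga3 lowest at −1.85, and in luminal-like cells Lama3 at 1.84 and Dst at −1.92 lie farthest apart.

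Within luminal-like cells, those with and without a hMETtg UMI were compared at 5000 UMIs per cell, 3269 against 1526 cells in DoubleTg and 409 against 3887 in TripleTg. None of the 8 genes was 2-fold higher or lower in DoubleTg, against 0.786% and 0.729% of 6994 genes, or in TripleTg, against 0.291% and 0.335% of 6873 genes. In DoubleTg the 6 genes with at least 10 CPM all stood above 0, with a median of 0.40 against 0.09 over all genes: Itga3 at 0.64 (0.49 to 0.80), Plec at 0.45, Itga6 at 0.40, Itgb4 at 0.39, Dst at 0.28 and Cd151 at 0.12 (−0.04 to 0.29). In TripleTg the median over 7 genes was 0.09, and Dst stood at −0.58 (−1.09 to −0.12) and Plec at 0.23 (0.10 to 0.36), while the other 5 were not distinguishable from 0. The level of hMETtg in luminal-like cells was 494 CPM in DoubleTg and 23.8 CPM in TripleTg, against 113 and 10.2 CPM in immune-like cells, so a part of the positive cells may hold background.

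Partner genes of the junction were followed as a list of 13. In DoubleTg 9 were at least 2-fold higher in basal-like than in luminal-like cells and 1 was lower, of 12 with at least 10 CPM, against 18.9% and 19.4% of all genes, and in TripleTg 8 were higher and 1 lower of 13, against 9.32% and 8.22%. The genes counted as higher include Krt5 and Krt14 in both libraries, and since both are among the markers that named the basal-like clusters, their direction was set by the naming. Col17a1, the transmembrane collagen of the hemidesmosome, had ratios of 5.84 and 6.35. Cd81, a tetraspanin, was the gene that was lower in basal-like cells, at −1.46 and −1.36.

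Between genotypes, 2 partner genes were at least 2-fold higher in TripleTg basal-like cells and 1 lower, of 13, a share near the 13% of all genes in each direction. Mst1r, a receptor of the MET family, stood at 2.82 (2.36 to 3.30) from 1.80 to 12.7 CPM and Cd81 at 1.15, while Col17a1 stood at −1.18 (−1.23 to −1.13). The basal keratins Krt14 and Krt5 stood at −0.75 and −0.07. In luminal-like cells 1 of 10 was higher, the integrin activator Fermt1 at 1.67 (1.62 to 1.72), and 0 were lower, against 9.44% and 13% of all genes.

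The matrix beyond laminin-332 was followed in TripleTg against DoubleTg basal-like cells. Of 5 basement membrane genes with at least 10 CPM (of 8 listed), 3 were at least 2-fold lower, the perlecan gene Hspg2 at −2.90, Col4a1 at −2.72 and Col4a2 at −2.5, and Col4a5 was higher at 1.89, against 13% of all genes in each direction. Of the other laminin chains, 2 of the 4 with at least 10 CPM were lower, Lamc1 at −1.64 and Lamb1 at −1.46, and 0 higher. Lama5, the α chain of another epithelial laminin, stood at −0.08 (−0.18 to 0.01). The further plakins Dsp, Ppl and Macf1 had ratios of 0.15, −0.57 and 0.59, none past 2-fold. The part of the fibroblast markers, whose sums in this class are given above, was not tested.

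Across 48 clusters of at least 50 cells of both libraries, the gene most like each of the 8 in its log2(CPM + 1) profile was Itga3 for Itgb4 and Itgb4 for Itga3 (Pearson r 0.89), Epha2 for Itga6 (0.88), Pard6g for Lama3 (0.87), Aqp3 for Lamb3 (0.91), Gclc for Dst (0.81), Sf3b3 for Plec (0.87) and Crip2 for Cd151 (0.87), among 6738 genes. Aqp3 is a basal marker used to name clusters, and Krt14, at 0.90, came second for Lamb3. Lama3 and Lamb3 had r = 0.82 with each other, whereas Itga6 had 0.59 with its partner Itgb4 and 0.16 with Dst. The clusters share libraries and depth, so these values describe likeness only.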

How the data were processed

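The deposited values are raw UMI counts of each gene in each cell, made by the authors in Cell Ranger (6.0.2 in the submitters' processing notes, 6.1.1 in the DoubleTg matrix header) from reads aligned to mm10 with the transgene sequences added. Cells were kept by the study's limits, a gene number between 200 and 7000 and a mitochondrial share below 15%, which left 87.8% of DoubleTg and 100.0% of TripleTg cells, with 256880958 and 229655259 UMIs. The TripleTg matrix held only cells within these limits when deposited, and the DoubleTg cells kept are more than the study states after its filtering, for a reason not given in the sources used here.

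Each library was clustered with scanpy 1.11.5 and igraph 0.11.9 (counts per 10000 on a log scale, 2000 variable genes without the members and partner genes, 20 components, 15 neighbours, Leiden resolution 1). Clusters were named from fixed marker lists, with naming thresholds that were set again once the clusters were known. The TripleTg cluster led by Tchh met the luminal-like conditions but was kept unnamed by a rule of its own. Adding it to the luminal-like class was not tried. UMIs were summed per class and divided by the class total. A gene was past the fold at a ratio of 2 or more, if 1 group reached 10 CPM and the interval of the log2 ratio excluded 0. Intervals are exact Poisson for levels, Clopper-Pearson for shares and conditional binomial for ratios (scipy 1.17.1). For shares of cells, each cell was drawn down to 5000 of its UMIs, which dropped 2171 DoubleTg and 1699 TripleTg shallower cells. Scrublet called 273 DoubleTg cells (2.58%) and 0 TripleTg cells, so called doublets were kept and their removal was an alternative. TMM factors came from edgeR 4.0.16 and figures from matplotlib 3.10.9. The calls were tested on simulated data for TripleTg over DoubleTg luminal-like cells: of 28000 genes simulated, 200 of 200 changed genes were called and 0 of 6644 unchanged ones. The simulation holds counting error only and says nothing of variation between libraries.

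The text names the 8 members, some genes of the partner, laminin, basement membrane and plakin lists (otherwise given by counts), and the genes most like each member over clusters (3 per member were ranked). Erbin is named Erbb2ip in the features, and the marker Trbc2 has no feature. Of the partner list, 1 gene was left out of the counts and is not reported here. Members and lists were chosen with earlier results of these data known. With 1 library per genotype no test was run.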

Additional observations from a re-analysis of the deposited data

Results flagged for a closer look

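Several genes stood on opposite sides of 0 in groups under the same contrast, with intervals that exclude 0 on both sides. None of these differences was tested, since there is 1 library per genotype. For basal-like over luminal-like cells, Cd151 had a log2 ratio of 0.83 in DoubleTg and −0.16 in TripleTg.

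For TripleTg over DoubleTg, Itga6 stood at −0.15 in basal-like and −0.74 in endothelial-like cells, but at 0.67 in luminal-like, 0.76 in fibroblast-like and 1.44 in smooth muscle-like cells. Lama3 stood at −0.57 in basal-like and 1.84 in luminal-like cells. Dst stood at −0.48 in basal-like, −1.92 in luminal-like and −0.69 in smooth muscle-like cells, and at 0.23 in fibroblast-like cells. Plec stood at −0.76 in basal-like cells, and at 0.47 in luminal-like and 0.22 in endothelial-like cells. Cd151 stood at −0.78 in basal-like cells, and at 0.73 in endothelial-like and 0.43 in fibroblast-like cells.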

How the results depend on the processing

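No paired analysis was possible because each genotype has 1 library and no result comes from a test. The counts of genes past 2-fold in basal-like against luminal-like cells, between genotypes in basal-like and endothelial-like cells, and by hMETtg were within 1.5 times of the reported ones in the settings tried. In luminal-like cells the count higher in TripleTg went from 1 to 0 with at least 50 CPM required, since Lama3 is under that level. In fibroblast-like cells the count higher went from 0 to 1 without Scrublet doublets and without the 8% of cells with the highest doublet scores, and the count lower went from 2 to 0 under these settings and with at least 50 CPM, and to 1 with cells thinned to 5000 UMIs. In smooth muscle-like cells the count higher went from 1 to 2 with TMM factors and at Leiden resolution 2, and the count lower from 2 to 1 with at least 50 CPM, at resolution 2, without the 8% highest doublet scores and with thinned cells.

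Ratios of TripleTg over DoubleTg with an interval that excludes 0 that changed sign were Itgb4 in endothelial-like cells (−0.43, to 0.0072 without Scrublet doublets and 0.011 without the 8% highest scores), Itga3 there (−0.52, to 0.11 and 0.0093), Itgb4 and Itga3 in fibroblast-like cells (−1.14 to 0.054 and −1.01 to 0.18 without the 8% highest scores) and Dst in smooth muscle-like cells (−0.69 to 0.17 at resolution 2). Of ratios whose interval includes 0, Cd151 in luminal-like cells went from −0.02 to 0.12 with the junction genes among the variable genes, 0.14 at resolution 2 and 0.20 with every luminal-like cluster. In smooth muscle-like cells Lama3 went from 1.15 to −1.32 without the 8% highest scores, Lamb3 from −0.03 to 0.95 at resolution 2 and Cd151 from −0.02 to 0.37 at resolution 2 and 0.62 with thinned cells. Other such ratios crossed 0 by less than 0.1. The cause was not tested. The removal of the 8% highest scores, of the Reg3b-led and Rsad2-led clusters, and the inclusion of every luminal-like cluster or of an unnamed Mt4-led TripleTg cluster among basal-like cells were chosen after seeing the data. Scrublet called no TripleTg cell, so its removal gave no value for TripleTg alone. TMM factors took the DoubleTg basal-like over luminal-like ratio of Itga6 from 1.09 to 0.87 and that of Cd151 from 0.83 to 0.61, and turned the sign of no ratio past 2-fold. Depth limits Lamb3 outside basal-like cells, with 20 and 24 UMIs in endothelial-like cells, and all smooth muscle-like values.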

Other observations

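Among immune-like cells, Lamb3 was highest in a DoubleTg cluster that was singled out after its values were seen. This cluster of 438 cells, led by Cd3g, a T cell receptor component, held Lamb3 at 50.9 CPM (43.9 to 58.6), with a UMI in 138 cells (31.5%, 27.2 to 36.1) at a median of 6512.5 UMIs. The DoubleTg immune-like cluster led by Ccl4, at a median of 10324 UMIs, had 3 of 275 cells with Lamb3 (0.93 CPM), the Jchain-led cluster 6.33% of its cells (19.4 CPM) and the Ccr7-led cluster 7.29% (7.03 CPM). Without the 8% of DoubleTg cells with the highest doublet scores, the Cd3g-led cluster kept 394 cells and Lamb3 stood at 54.4 CPM in 29.7% of cells, and the Jchain-led and Ccr7-led clusters had 0 and 7.60 CPM, while in the Cd3g-led cluster Lama3 went from 11.7 to 1.17 CPM and Krt14 from 170 to 4.70 CPM. In the TripleTg immune-like clusters Lamb3 stood at 0.95 to 14.9 CPM. An unnamed TripleTg cluster of 142 cells led by Gzma, with Cd3g among its leading genes, had Lamb3 at 13.8 CPM (9.95 to 18.7) and Lama3 at 16.4 CPM.

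Glial-like cells, 39 in DoubleTg and 25 in TripleTg, had Dst at 498 CPM (407 to 603) and 821 CPM (661 to 1008), from 104 and 91 UMIs, against 500.8 and 359 CPM in basal-like cells. In DoubleTg these cells also had Cd151 at 225 CPM (165 to 299), above the endothelial-like 135 CPM, Itgb4 at 105 CPM (66.0 to 159), against the endothelial-like 57.6 CPM (48.0 to 68.5) with overlapping intervals, and Lamb3 at 47.9 CPM (23.0 to 88.0), from 47, 22 and 10 UMIs. The 10 Lamb3 UMIs came from 2 of the 39 cells. In TripleTg glial-like cells Cd151 had 11 UMIs, Itgb4 3, and Lama3 and Lamb3 0, with an upper 95% bound of 33.3 CPM for 0. Outside the named classes, a TripleTg epithelial cluster of 453 cells led by Tchh had Dst at 5.19 CPM and Lamb3 at 2.94 CPM, and one of 277 cells led by Mt4 had Lamb3 at 147 CPM, Lama3 at 67.1 CPM, Dst at 70.5 CPM and Col17a1 at 71.9 CPM. A DoubleTg cluster of 73 cells led by Atp6v1g3, also unnamed, had Lama3 at 168 CPM (149 to 188), Lamb3 at 129 CPM, Itgb4 at 170 CPM (151 to 190), Itga6 at 368 CPM (339 to 398), Plec at 493 CPM and Dst at 374 CPM. In the Mt4-led cluster Lamb3 was thus near the basal-like level of 145 CPM, while Dst was below the basal-like 359 CPM.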
